A study of Mus musculus with 2 samples.

Results

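The expression of 10 chemokine genes was examined in single cells recovered from mouse mammary transplants: Cxcl1, Cxcl2, Cxcl9, Cxcl10, Cxcl14, Cxcl16, Ccl2, Ccl3, Ccl4 and Ccl20. They were taken by name, 10 of the 27998 genes counted, and all 10 had reads. Each transplant joined luminal cells that were wild type for Fgfr2, the gene of a fibroblast growth factor receptor, with basal cells that had been exposed to an adenovirus carrying Cre and GFP. All donor cells carried the R26R mTmG reporter, and the mixtures were placed in cleared fat pads of female nude mice at weaning age, which lack a thymus and so hold few mature T cells. In the Ctrl library (WT genotype) the basal cells kept Fgfr2, and in the Fgfr2 KO library their Fgfr2 alleles had been deleted by Cre. The grafts were dissected within the first week after surgery and sorted for fluorescence before droplet-based sequencing. How many hosts were pooled into a library is not given in the sources used here.

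Chemokines are small secreted proteins that bind G protein-coupled receptors on leukocytes and set the direction in which these cells move. Cxcl1 and Cxcl2 act on Cxcr2 and draw neutrophils. Cxcl9 and Cxcl10 are induced by interferons and act on Cxcr3 of T and NK cells. Cxcl16 is made as a membrane protein and binds Cxcr6, Ccl2 draws Ccr2-bearing monocytes, Ccl3 and Ccl4 draw monocytes, macrophages and lymphocytes, and Ccl20 is the ligand of Ccr6. Cxcl14 is a chemokine of epithelia whose receptor use is less settled. In the mammary gland, basal cells are the contractile, Krt14- and Krt5-expressing outer layer of the ducts, and luminal cells, which express Krt8 and Krt18, line the lumen.

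Promoters of inflammatory chemokines carry short elements through which NF-kB and interferon-activated factors act. The promoters of the pair Cxcl1 and Cxcl2 and of the pair Cxcl9 and Cxcl10 are shown because these genes are described as pairs below. The sequences are RefSeq promoters of the GRCm38.p6 assembly, from 250 bases before to 50 bases after the start site, 5′ to 3′ on the strand of the gene. Capitals mark every match, on either strand, to the NF-kB (kB) consensus or to GAAANNGAAA, the core of the interferon-stimulated response element.
Cxcl1: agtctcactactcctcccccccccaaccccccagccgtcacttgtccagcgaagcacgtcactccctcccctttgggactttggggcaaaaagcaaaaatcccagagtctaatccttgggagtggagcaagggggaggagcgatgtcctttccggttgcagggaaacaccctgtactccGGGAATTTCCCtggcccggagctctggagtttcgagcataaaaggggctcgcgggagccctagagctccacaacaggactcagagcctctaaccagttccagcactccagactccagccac
Cxcl2: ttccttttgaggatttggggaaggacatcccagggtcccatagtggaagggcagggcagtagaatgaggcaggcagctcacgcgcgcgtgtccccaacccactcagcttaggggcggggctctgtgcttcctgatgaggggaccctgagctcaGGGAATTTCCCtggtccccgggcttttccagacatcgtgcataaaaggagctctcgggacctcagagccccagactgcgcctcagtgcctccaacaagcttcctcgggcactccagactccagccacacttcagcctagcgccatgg
Cxcl9: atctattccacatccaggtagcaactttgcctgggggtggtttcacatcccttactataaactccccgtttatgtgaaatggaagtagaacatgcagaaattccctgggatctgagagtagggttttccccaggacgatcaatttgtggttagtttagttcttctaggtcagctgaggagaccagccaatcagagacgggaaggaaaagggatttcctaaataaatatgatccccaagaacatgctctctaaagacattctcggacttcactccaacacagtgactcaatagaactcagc
Cxcl10: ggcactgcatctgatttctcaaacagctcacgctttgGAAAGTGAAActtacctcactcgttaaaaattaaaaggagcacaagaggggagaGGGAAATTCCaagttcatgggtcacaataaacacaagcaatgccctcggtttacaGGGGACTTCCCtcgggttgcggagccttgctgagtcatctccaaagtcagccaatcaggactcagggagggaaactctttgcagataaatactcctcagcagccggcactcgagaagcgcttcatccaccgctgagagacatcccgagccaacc

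These windows are chr5:90890995-90891294 (+ strand) for Cxcl1, chr5:90903649-90903948 (+) for Cxcl2, chr5:92328030-92328329 (- strand) for Cxcl9 and chr5:92348840-92349139 (-) for Cxcl10. Cxcl1 and Cxcl2 carried the same kB match, GGGAATTTCC, with a second match on the other strand that overlapped it by all but 1 base. It ended 62 bases before the start site in Cxcl1 and 88 bases before it in Cxcl2. Cxcl10 held kB matches ending 150, 95 and 94 bases before the start site and the response element GAAAGTGAAA ending 204 bases before it. The Cxcl9 window held none of the motifs searched. Of the 10 genes, 7 had a promoter in the table used. The kB consensus matched 4 of them (Cxcl1, Cxcl2, Cxcl10 and Ccl20) and 8.46% of all 32851 promoters of this length. GAAANNGAAA matched 2 (Cxcl10 and Cxcl14) and 3.44% of all, and the gamma-activated site TTCNNNGAA matched 1 (Cxcl14) and 8.30% of all. A match describes letters in the window and is not evidence of a bound site.

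The genes themselves lie, in GENCODE M21 on the same assembly, on chromosome 5 (Cxcl1 at chr5:90891241-90893115, Cxcl2 at chr5:90903871-90905938, Cxcl9 at chr5:92321347-92328079 and Cxcl10 at chr5:92346638-92348889), chromosome 11 (Cxcl16 at chr11:70453983-70459984, Ccl2 at chr11:82035571-82037453, Ccl3 at chr11:83647844-83649355 and Ccl4 at chr11:83662584-83664683), chromosome 13 (Cxcl14 at chr13:56288643-56296551) and chromosome 1 (Ccl20 at chr1:83116766-83119167). All 10 are annotated as protein coding.

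The Ctrl library had 268 cells and the Fgfr2 KO library 86, with medians of 16301 and 10485 UMIs (unique molecular identifiers, 1 per captured transcript) per cell, and no barcode occurred in both. Any UMI of Ptprc, which encodes the leukocyte antigen CD45, placed a cell in the CD45-positive class, of 73 Ctrl and 23 Fgfr2 KO cells. The others were classed as luminal-keratin (117 and 31) where Krt8 plus Krt18 exceeded Krt14 plus Krt5, as basal-keratin (68 and 22) in the opposite case, and had no call at a tie (10 and 10). These classes are not pure: 16 of 117 Ctrl and 7 of 31 Fgfr2 KO luminal-keratin cells, and 2 of 68 and 4 of 22 basal-keratin cells, had more UMIs of 8 immune genes than of the 4 keratins. Levels are therefore also given for marker-screened classes, in which each cell goes to whichever of the immune genes, the keratins, 5 fibroblast genes and 3 endothelial genes had most UMIs. Screening gave 84 and 43 immune, 97 and 23 luminal, 67 and 18 basal and 15 and 2 fibroblast cells, and 5 endothelial cells, all of Ctrl. Among the CD45-positive cells, macrophage genes were common (C1qa in 49 of 73 Ctrl and 15 of 23 Fgfr2 KO cells), and of the T-cell genes Cd3e, Cd3g and Cd8a had 0 UMIs, Cd3d had 1, and Cd4, which macrophages can also express, had 1 UMI in a Ctrl cell and 5 over 5 Fgfr2 KO cells. Of the neutrophil genes, S100a8 had 37 UMIs over 23 Ctrl cells and 4 over 2 Fgfr2 KO cells, Csf3r had 15 in 13 and 5 in 3, G0s2 had 3 in Ctrl, S100a9 and Retnlg had 1 each in Ctrl, and Cxcr2 had 0. In basal-keratin cells, the targeted gene Fgfr2 was at 32.4 counts per 1000000 UMIs (CPM; 95% Poisson interval 23.4 to 43.8, 42 UMIs) in the Ctrl library and at 21.9 CPM (8.81 to 45.1, 7 UMIs) in the Fgfr2 KO library, so a loss was not detectable at this depth. Whether these UMIs fall in the deleted exons cannot be read from gene counts. With 1 library per group there are no replicates and no test. All intervals are 95% intervals that cover counting error only, and host, sort and library cannot be told apart from genotype.

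The first question was which cells held the transcripts. In Ctrl, 5 of the 9 chemokine genes with enough counts were at least 2-fold higher in CD45-positive than in keratin-classed cells (Cxcl1, Cxcl2, Cxcl16, Ccl3 and Ccl4) and 0 were lower, where 9.15% and 21.6% of all 10541 genes with at least 20 UMIs were called higher and lower. With screening Ccl2 was also higher (1.14 on the log2 scale), and Cxcl9 (-3.34) and Cxcl10 (-1.25) were lower. Of the 251 Cxcl9 UMIs of the CD45-positive class, 213 were in a single cell with endothelial genes, which screening moved. The median log2 ratio of the 9 before screening was 1.16, against -0.34 over all genes. Between the keratin classes, 3 of 9 were higher in luminal-keratin cells (Ccl2, Ccl3 and Ccl4; 9.65% of all genes) and 3 were higher in basal-keratin cells, that is lower in luminal-keratin cells (Cxcl9, Cxcl10 and Cxcl14; 5.07% of all genes). The basal trio kept its direction under every definition of the classes tried. The luminal trio did not: of it, Ccl2 alone stayed higher after screening, by 0.52 on the log2 scale (0.28 to 0.75). A gene with few UMIs per cell can be missed in a cell that makes it, so the levels below are sums over the cells of a class.

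**Figure D1:**
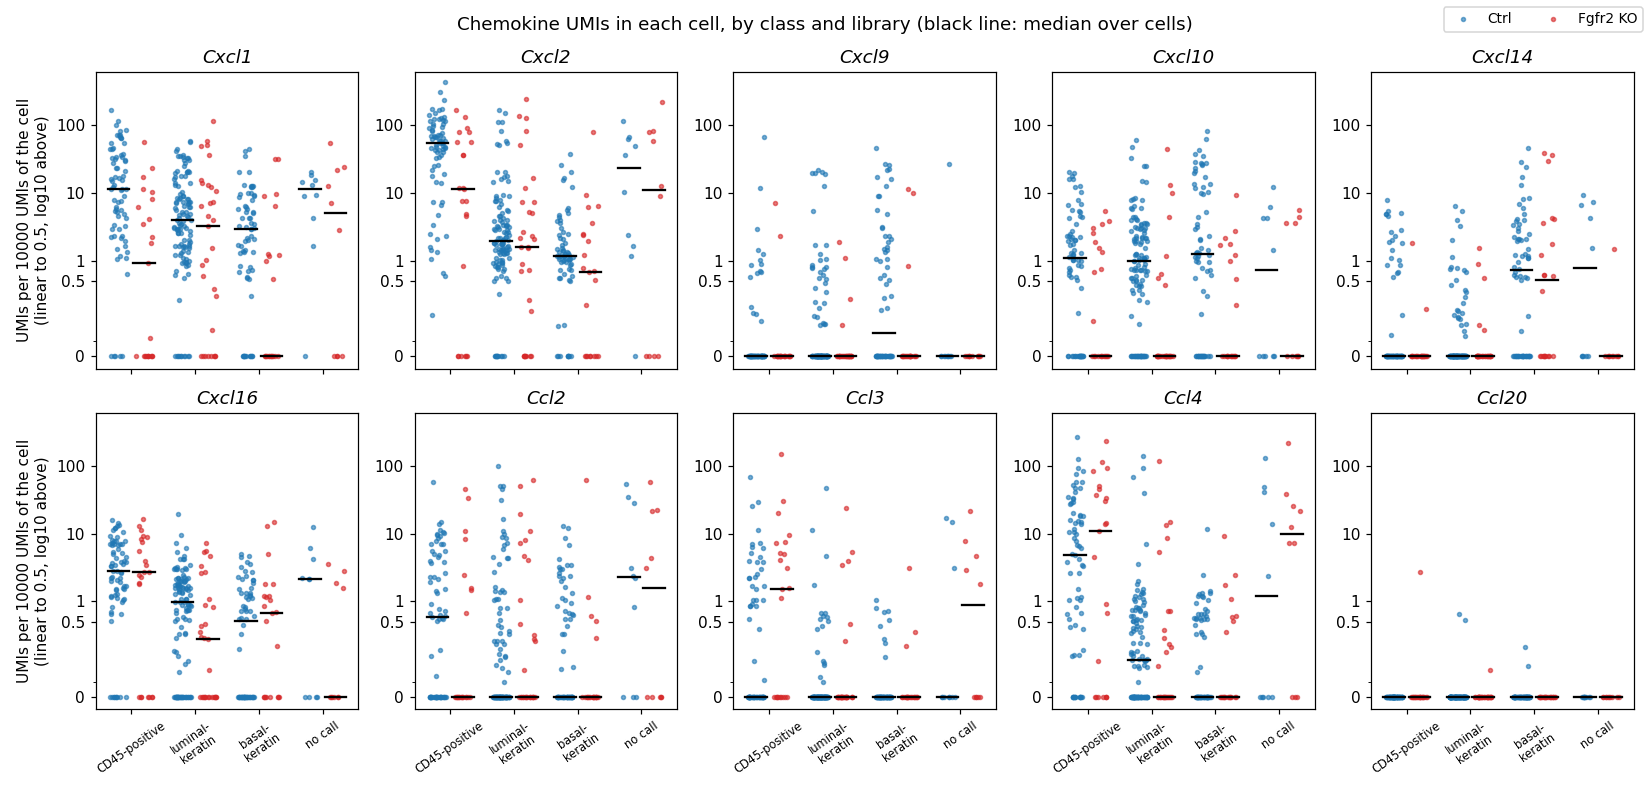
UMIs of each chemokine per 10000 UMIs of the cell (vertical axis, linear to 0.5 and log10 above) in every cell, by class, with Ctrl in blue and Fgfr2 KO in red and a black line at the median over cells. Cxcl2 had a UMI in all 73 Ctrl CD45-positive cells, Cxcl9 was at 0 in at least 50% of the cells of each class and library, and Ccl20 had UMIs in 6 of 354 cells.

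Cxcl1 was spread over all classes. In Ctrl it was at 1898 CPM (1822 to 1976) in CD45-positive cells, 886 CPM (851 to 921) in luminal-keratin and 774 CPM (726 to 823) in basal-keratin cells, and it had a UMI in 93.2%, 91.5% and 82.4% of the cells. The luminal and basal levels differed by 0.20 on the log2 scale (0.09 to 0.30), and the immune level lay above both. The 3 cells with most Cxcl1, with 267, 264 and 203 UMIs, were 1 basal-keratin and 2 luminal-keratin cells, with 177 UMIs of Krt14 and Krt5 in the first, 137 and 109 of Krt8 and Krt18 in the others, and 10 to 27 of the immune genes. In Fgfr2 KO it was at 1045 CPM (966 to 1129) in luminal-keratin, 461 CPM (383 to 549) in CD45-positive and 369 CPM (306 to 442) in basal-keratin cells. With screening the immune, luminal and basal classes had the same order as in Ctrl, with 1173 CPM (1055 to 1300) in immune, 677 CPM (615 to 745) in luminal and 195 CPM (148 to 254) in basal cells of Fgfr2 KO, beside 2445, 821 and 684 CPM in Ctrl. The screened fibroblast class was at 4370 CPM (3640 to 5202) in Fgfr2 KO, the highest there but from 2 cells, and at 1029 CPM (914 to 1153) in 15 Ctrl cells. A single basal-keratin cell held 267 of 1002 UMIs in Ctrl, and another held 51 of 118 in Fgfr2 KO.

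Cxcl2 was highest in immune cells and present in every class. Ctrl CD45-positive cells held 6469 of its 9165 UMIs in that library, at 5187 CPM (5061 to 5314), and the median such cell had 59 UMIs. Luminal-keratin cells had 657 CPM (627 to 687) with a median of 4 UMIs, and basal-keratin cells 421 CPM (386 to 458) with a median of 2. After screening, luminal and basal cells had 433 and 395 CPM, 0.13 apart on the log2 scale (-0.01 to 0.28), beside 7204 CPM (7040 to 7370) in immune cells. In the luminal-keratin class, 1 cell held 210 of 1850 UMIs, and in the basal-keratin class 1 cell held 222 of 545. Fgfr2 KO showed the same order, with 2612, 888 and 266 CPM in the 3 classes.

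Over all 354 cells, Cxcl1 and Cxcl2 had the highest correlation with each other from the side of Cxcl1 (Pearson r = 0.61 of log values), while the genes most like Cxcl2 were Ctss, Lyz2 and Fcer1g (r = 0.77 to 0.78), which are genes of myeloid cells. Of the 292 cells with Cxcl1, 262 (89.7%) also had Cxcl2, and these were 85.3% of the 307 cells with Cxcl2. These correlations are across cells, which share 2 libraries and differ in depth. Cxcr2, the receptor of both, had 1 UMI in 1 cell.

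Cxcl9 and Cxcl10 had their highest keratin-class levels in basal-keratin cells. Cxcl10 was at 1018 CPM (964 to 1075) in Ctrl basal-keratin cells, 396 CPM (373 to 420) in luminal-keratin and 400 CPM (366 to 437) in CD45-positive cells, and so 1.36 lower on the log2 scale in luminal than in basal (-1.48 to -1.25). These luminal and CD45-positive levels did not differ beyond their intervals, but screening set them apart. Screened luminal cells of Ctrl had 464 CPM of Cxcl10 (439 to 491) and screened immune cells 265 CPM (235 to 299). Before screening, Cxcl10 had a UMI in 72.1% of basal-keratin, 77.8% of luminal-keratin and 71.2% of CD45-positive cells. The median cell had 2 UMIs in each class, so the higher basal sum lay in the upper cells. The 5 top cells, with 228, 215, 161, 147 and 133 UMIs, were all Ctrl epithelial cells, 2 luminal-keratin and 3 basal-keratin.

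Cxcl9 was at 367 CPM (335 to 402) in Ctrl basal-keratin cells, where 34 of 68 cells had it, and at 96.9 CPM (85.7 to 109) in luminal-keratin cells, where 33 of 117 had it. The top basal-keratin cell held 103 of 476 UMIs. It had 17 UMIs of Krt14 and Krt5, 9 of Krt8 and Krt18 and 41 of dendritic-cell genes, and without it the class was at 293 CPM. The CD45-positive level of Cxcl9, 201 CPM (177 to 228), came from 1 cell: 213 of 251 UMIs were in a cell with 1 Ptprc UMI, 10 UMIs of the immune genes and 26 of the endothelial genes. Without that cell the CD45-positive class was at 31.3 CPM. The screened immune class had 18.5 CPM (11.2 to 29.0), which put it 3.34 below the epithelial cells on the log2 scale (-4.08 to -2.68). Over both libraries, 7 cells held at least 50% of all Cxcl9 UMIs of the series.

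The genes most like Cxcl9 were Gbp2, Ubd and Igtp (r = 0.48 to 0.57), all known to be induced by interferon, and those most like Cxcl10 were Cxcl9 (r = 0.47), Gbp2 and Anxa8. Of the 93 cells with Cxcl9, 80 (86.0%) had Cxcl10, whereas these were 34.9% of the 229 cells with Cxcl10. The pair correlated with r = 0.61 in basal-keratin, 0.42 in luminal-keratin and 0.24 in CD45-positive cells. Ifng, the gene of interferon gamma, had 3 UMIs in 2 cells, both Ctrl and CD45-positive, and Cxcr3 had 3 UMIs in 3 cells.

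**Figure D2:**
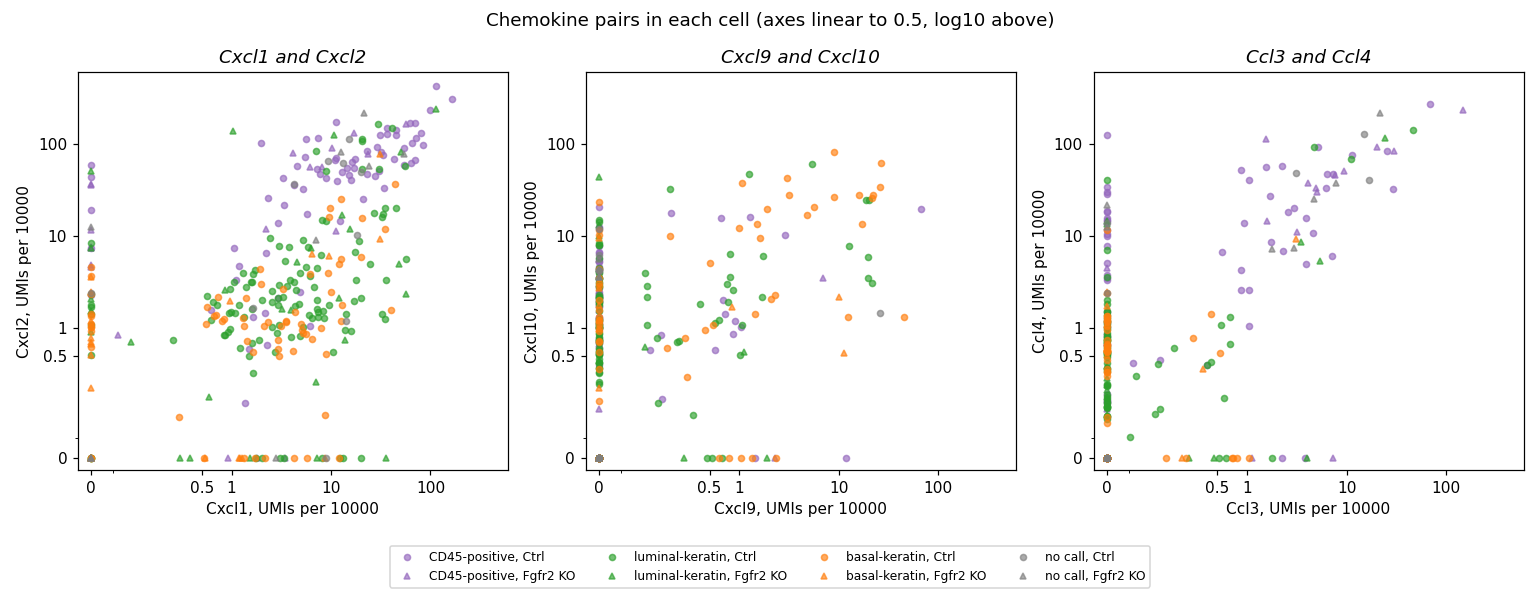
UMIs per 10000 of Cxcl1 against Cxcl2, Cxcl9 against Cxcl10 and Ccl3 against Ccl4 in each of 354 cells (axes linear to 0.5, log10 above), coloured by class, with circles for Ctrl and triangles for Fgfr2 KO. The highest Cxcl2 and Ccl4 values were in CD45-positive cells, with luminal-keratin and no-call cells among the next, and basal-keratin Ctrl cells form most of the upper right of the middle plot.

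Cxcl14 followed the basal keratins. Ctrl basal-keratin cells had 220 CPM (195 to 247), luminal-keratin cells 18.1 CPM (13.5 to 23.8), a log2 ratio of -3.60 for luminal over basal (-4.06 to -3.17), and CD45-positive cells 89.8 CPM (73.9 to 108). It had a UMI in 63.2%, 23.9% and 30.1% of these cells, and in 43.5%, 8.87% and 19.6% when each cell was thinned to 5393 UMIs. In Fgfr2 KO the basal-keratin class held 140 of 148 UMIs, at 438 CPM (369 to 517), with 69 of them in 1 cell. The genes most like it were Cnn1, Myl9 and Tagln (r = 0.45 to 0.48), which belong to the contractile apparatus of smooth muscle and myoepithelial cells. Screened Ctrl immune cells still had 103 CPM (84.7 to 125), in 25 of 84 cells.

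Cxcl16 was the most evenly held of the genes by the number of cells needed to reach 50% of its UMIs, 47. It had a UMI in 245 of 354 cells, fewer than Cxcl2 (307) and Cxcl1 (292). It was at 320 CPM (289 to 353) in CD45-positive, 129 CPM (116 to 143) in luminal-keratin and 106 CPM (88.8 to 125) in basal-keratin cells of Ctrl. The intervals of the keratin classes overlapped. Its level was 1.40 higher on the log2 scale in CD45-positive than in keratin-classed cells (1.20 to 1.59). The genes most like it were Bcl2a1b, Tmsb4x and Bcl2a1d (r = 0.58 to 0.61), the first and last of which encode closely related survival proteins of leukocytes whose reads can be shared. Its receptor gene Cxcr6 had 1 UMI.

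Ccl2 was held by few cells of several kinds: 9 of 354 cells held at least 50% of its 1980 UMIs. In Ctrl it was at 341 CPM (320 to 363) in luminal-keratin, 261 CPM (234 to 291) in CD45-positive and 141 CPM (122 to 163) in basal-keratin cells. The luminal-keratin cell with most Ccl2, 231 UMIs, had 2 UMIs of Krt14 and Krt5, 9 of Krt8 and Krt18 and 354 of the fibroblast genes, and 3 more of the 6 top cells had over 100 fibroblast-gene UMIs. The screened fibroblast class had the highest level, 1496 CPM (1357 to 1645) over 15 Ctrl cells, ahead of immune (421 CPM, 382 to 462), luminal (213 CPM, 195 to 231) and basal cells (149 CPM, 129 to 170). The other 2 top cells, with 179 and 144 UMIs, were luminal cells with 109 and 137 UMIs of Krt8 and Krt18. Ccl7, a related monocyte chemokine, was the gene most like it (r = 0.67), and 107 of 165 Ccl2 cells also had Ccl7. Ccr2 had 46 UMIs in 21 cells.

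Ccl3 and Ccl4 were genes of the immune cells and occurred together. In Ctrl, Ccl4 was at 1321 CPM (1258 to 1387) in CD45-positive, 126 CPM (114 to 140) in luminal-keratin and 41.7 CPM (31.3 to 54.4) in basal-keratin cells. Ccl3 was at 166 CPM (144 to 190), 17.7 CPM (13.2 to 23.4) and 6.95 CPM (3.18 to 13.2) in the same classes. CD45-positive cells thus exceeded keratin-classed cells by 3.73 for Ccl4 (3.57 to 3.89) and 3.53 for Ccl3 (3.11 to 3.97) on the log2 scale. The luminal excess over basal cells was absent after screening, which gave 30.4 CPM in luminal and 51.2 CPM in basal cells for Ccl4 and 5.63 and 6.41 CPM for Ccl3. They were the genes most like each other over all cells (r = 0.74). Of the 89 cells with Ccl3, 72 (80.9%) had Ccl4, which were 35.1% of the 205 cells with Ccl4. The Ctrl cell with most Ccl4 (192 UMIs, with 49 of Ccl3) had 216 macrophage-gene UMIs. The Fgfr2 KO cell with most Ccl3 (78 UMIs, with 122 of Ccl4) had 73 UMIs of NK-cell genes and 2 of macrophage genes.

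Ccl20 had 30 UMIs in all. Of these, 23 lay in 1 Fgfr2 KO cell with 83994 UMIs, which was CD45-positive by a single Ptprc UMI and had 607 UMIs of Krt8 and Krt18 and 14 of the immune genes. The screened immune classes had 0 UMIs, with a floor of 3 counts of the class total at 2.93 CPM (Ctrl) and 9.72 CPM (Fgfr2 KO). All 6 cells with Ccl20 were epithelial after screening. Its receptor gene Ccr6 had 0 UMIs.

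Droplet libraries carry free RNA, so a low and even level in every class is no sign of expression. Lyz2, Tyrobp, Fcer1g and Ctss, genes of myeloid cells, had at least 1 UMI in all 97 screened luminal cells and in 95.5% of screened basal cells of Ctrl, at 405 and 384 CPM, against 23914 CPM in immune cells. All 4 are among the 8 immune genes that set the screened classes, so part of this contrast follows from the class rule. Per 100 UMIs of these 4 genes, Ccl4 had 8.45 UMIs in screened Ctrl immune cells, 7.49 in luminal, 13.4 in basal (21 of 72 UMIs in 1 cell) and 9.48 in fibroblast cells, and Ccl3 had 1.15, 1.39, 1.67 and 1.72. In Fgfr2 KO, Ccl4 had 21.4 in immune, 14.1 in luminal and 30.0 in basal cells, and Ccl3 had 5.57, 2.35 and 6.67, on 2 to 12 UMIs in each epithelial class. The levels of Ccl3 and Ccl4 outside immune cells are not read here as expression by those cells, and the part of free RNA in them was not tested. In Ctrl the share of cells with Ccl3 was also alike, with 14.4% of luminal (median 22674 UMIs per cell), 13.4% of basal (16117) and 13.3% of fibroblast cells (18343), against 44.0% of immune cells (9757). In Fgfr2 KO the share was 8.70% of luminal, 11.1% of basal and 53.5% of immune cells. The members below did not keep to 1 ratio in Ctrl, from which the next values come. Cxcl1 had 10.2 UMIs per 100 in immune cells but 202 in luminal and 178 in basal cells, Cxcl2 had 30.1, 107 and 103, Cxcl10 had 1.11, 115 and 248, Cxcl16 had 1.74, 30.7 and 26.0, and Ccl2 had 1.76, 52.4 and 38.8 with 367 in fibroblast cells.

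**Figure D3:**
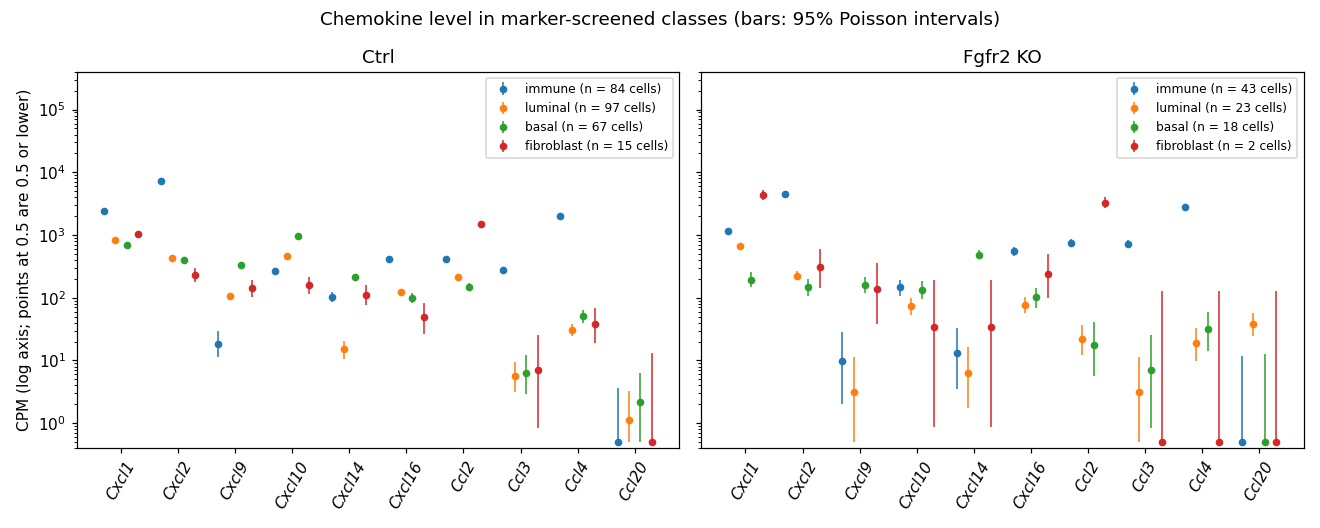
Level of each chemokine in CPM (log axis, with values of 0.5 or lower drawn at 0.5) in the marker-screened immune, luminal, basal and fibroblast classes of Ctrl (left) and Fgfr2 KO (right), with 95% Poisson intervals. Cxcl2, Ccl3 and Ccl4 were highest in immune cells of both libraries, Cxcl14 was highest in basal cells, and Ccl2 was highest in fibroblast cells, of which Fgfr2 KO had 2.

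The second question was how the chemokines compared between transplants whose basal cells had or lacked Fgfr2. Cxcl9 and Cxcl10 were more than 2-fold lower in the Fgfr2 KO library in all 3 classes, but in screened immune cells both were within 2-fold. Ccl3 was higher in CD45-positive cells, and Cxcl16 and Ccl4 were within 2-fold in the 3 classes with and without screening, though not under every other definition. Cxcl2 and Ccl2 were within 2-fold in the 3 unscreened classes, but screening put Ccl2 beyond 2-fold lower in luminal and basal cells and Cxcl2 in basal cells. In CD45-positive cells, 4 of 10 genes were at least 2-fold lower (Cxcl1, Cxcl9, Cxcl10 and Cxcl14) and 2 were higher (Ccl3 and Ccl20), where 12.2% and 7.80% of all 6345 genes were called. In luminal-keratin cells, 3 of 9 were lower (Cxcl9, Cxcl10 and Cxcl14) and 1 was higher (Ccl3), with 8.58% and 4.06% of 9459 genes called. In basal-keratin cells, 3 of 8 were lower (Cxcl1, Cxcl9 and Cxcl10) and 0 higher, with 11.2% and 4.36% of 6863 genes called. The median log2 ratios of the members were -0.26, -0.29 and -0.76 in the 3 classes, beside -0.03, -0.06 and -0.12 over all genes. In these sums, fewer cells that make a transcript and less of it per cell give the same level.

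For Cxcl10, Fgfr2 KO basal-keratin cells had 122 CPM (86.8 to 167) against 1018 CPM in Ctrl, a log2 ratio of -3.06 (-3.56 to -2.60). The level was 94.0 CPM (71.4 to 122) in Fgfr2 KO luminal-keratin cells, with a log2 ratio of -2.08 (-2.48 to -1.69), and 77.4 CPM (47.9 to 118) in CD45-positive cells, with -2.37 (-3.08 to -1.74). In screened immune cells the ratio was -0.86 (-1.35 to -0.41), short of 2-fold. The ratio stayed below 0 under each alternative run, between -3.58 and -2.79 in basal-keratin, -2.75 and -0.50 in luminal-keratin and -2.63 and -0.85 in CD45-positive cells. The share of cells with a UMI went from 72.1% to 40.9% in basal-keratin cells (medians of 15579 and 16372 UMIs per cell) and from 77.8% to 25.8% in luminal-keratin cells (20160 and 15029). After thinning to 1 depth it went from 56.0% to 29.0% and from 49.0% to 16.4%. The 3 highest basal-keratin cells had 161, 147 and 133 UMIs in Ctrl and 16, 7 and 5 in Fgfr2 KO.

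Cxcl9 was lower by a log2 ratio of -1.35 (-1.82 to -0.91) in basal-keratin cells, where all 46 Fgfr2 KO UMIs came from 3 cells with 23, 21 and 2 UMIs, against 34 positive Ctrl cells. Over the alternative runs the basal-keratin ratio lay between -1.92 and -0.99, the upper end just short of 2-fold. In luminal-keratin cells 6 UMIs in 4 cells stood against 273 in 33 cells (-3.32, -4.78 to -2.18). In CD45-positive cells the ratio was -4.19 (-6.47 to -2.62), with 213 of the 251 Ctrl UMIs in the cell with endothelial genes. It was -3.07 when the top cells of both libraries were left out, on 1 against 38 UMIs, and the screened immune ratio of -0.93 had an interval that included 0 (-3.33 to 0.83).

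Of the listed genes of the interferon response other than chemokines, 8 of 11 were called lower in Fgfr2 KO basal-keratin cells (11.2% of all genes), 6 of 13 in luminal-keratin (8.58%) and 5 of 12 in CD45-positive cells (12.2%), and 0 were called higher. Their median log2 ratios were -1.50, -0.98 and -0.44, beside -0.12, -0.06 and -0.03 over all genes. In basal-keratin cells, Ubd had 178 CPM in Ctrl against 6.26 CPM in Fgfr2 KO (log2 ratio -4.83, -7.88 to -2.96), and Gbp2b had 201 and 9.39 CPM (-4.42, -6.71 to -2.86). Iigp1, an interferon-induced GTPase, had 603 and 213 CPM (-1.50, -1.88 to -1.14). Irf1 had 179 and 175 CPM in the same cells, and its interval included 0. The listed NF-kB response genes gave 3 higher and 1 lower of 10 in basal-keratin cells, where 4.36% and 11.2% of all genes were called. They gave 0 higher and 1 lower of 11 in luminal-keratin cells (4.06% and 8.58%) and 1 higher and 2 lower of 11 in CD45-positive cells (7.80% and 12.2%). Their medians were 0.24, 0.07 and -0.14. Nfkbia, an inhibitor that NF-kB induces, had 2279 CPM in Ctrl against 2035 CPM in Fgfr2 KO basal-keratin cells.

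Cxcl1 was lower in Fgfr2 KO in CD45-positive cells by a log2 ratio of -2.04 (-2.31 to -1.78) and in basal-keratin cells by -1.07 (-1.35 to -0.79). In luminal-keratin cells it was at 1045 against 886 CPM, a ratio of 0.24 (0.11 to 0.36). Screening gave -1.06 (-1.22 to -0.90), -1.81 (-2.22 to -1.42) and -0.28 (-0.43 to -0.13) for immune, basal and luminal cells, so the luminal direction depended on which cells were counted. Over the alternative runs the Cxcl1 ratio lay between -2.67 and -0.72 in CD45-positive and between -1.84 and -0.49 in basal-keratin cells. Not every run therefore reached 2-fold. Cxcl2 had log2 ratios of -0.99 (-1.10 to -0.88) in CD45-positive, 0.44 (0.30 to 0.57) in luminal-keratin and -0.66 (-1.01 to -0.33) in basal-keratin cells, and of -0.69, -0.95 and -1.40 after screening. The mean CPM over cells gave 1.15 in luminal-keratin and 0.69 in basal-keratin cells for Cxcl2, and leaving out the CD45 filter gave -0.38 and -2.27. Summed over the screened classes, both genes were lower in Fgfr2 KO in all 3. Lyz2, Tyrobp, Fcer1g and Ctss together were lower there too. They were at 13042 against 23914 CPM in immune, 135 against 405 in luminal and 105 against 384 in basal cells. Per 100 of their UMIs, Cxcl1 had 8.99, 501 and 187 in these classes of Fgfr2 KO, against 10.2, 202 and 178 in Ctrl. Cxcl2 had 34.3, 166 and 143 against 30.1, 107 and 103. The part of free RNA in these differences was not tested.

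Cxcl14 was nearly 2-fold higher in Fgfr2 KO basal-keratin cells, at 438 against 220 CPM (log2 ratio 0.99, 0.69 to 1.29), but without the top cell of each library this became 237 against 184 CPM and a log2 ratio of 0.36. Screened basal cells had 485 against 217 CPM, a log2 ratio of 1.16 (0.86 to 1.45), with the same top cell. The share of cells with it was 63.2% in Ctrl and 54.5% in Fgfr2 KO. Its lower value in luminal-keratin cells rested on 5 against 51 UMIs, and the interval included 0 (-1.16, -2.84 to 0.16). In CD45-positive cells it was lower, with 2 against 112 UMIs (-3.61, -6.67 to -1.72). Screened immune cells gave -3.00 (-4.90 to -1.60), with 4 against 106 UMIs. Keratin transcripts differed beside Cxcl14: Krt14 had 505 UMIs in the Ctrl and 9 in the Fgfr2 KO CD45-positive cells, whose total UMIs were 1247271 and 271402. The listed basal genes together were at 1449 and 95.8 CPM in these cells, and at 568 and 110 CPM in screened immune cells. The part of such basal transcripts in the Cxcl14 difference was not tested. Cxcl16 had log2 ratios of 0.57 (0.27 to 0.86), -0.53 (-0.97 to -0.12) and 0.94 (0.50 to 1.38) in CD45-positive, luminal-keratin and basal-keratin cells. The last became 0.02 (-0.61 to 0.61) with screening, which left 29 UMIs in the Fgfr2 KO class in place of 65, and 1.08 as the mean CPM over cells. The cell with most of the 65, at 21, had 1 keratin UMI and 34 UMIs of immune genes. The luminal-keratin ratio of Cxcl16 lay between -0.96 and 0.16 over the alternative runs, so its direction was not kept.

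Ccl2 was within 2-fold in all 3 classes, with log2 ratios of 0.47 (0.13 to 0.80) in CD45-positive, -0.29 (-0.53 to -0.06) in luminal-keratin and -0.85 (-1.52 to -0.24) in basal-keratin cells. The CD45-positive ratio lay between -0.19 and 1.12 over the alternative runs. There 49 of the 98 Fgfr2 KO UMIs were in 1 cell, and leaving out the top cells gave 191 against 217 CPM. The keratin-class values also depended on the definition and on how cells were averaged: the mean CPM over cells gave 0.70 in luminal-keratin and 1.24 in basal-keratin cells, the opposite direction to the sums, and screening gave values beyond 2-fold lower. Screened Fgfr2 KO luminal cells had 14 UMIs in 6 of 23 cells, at 22.3 CPM (12.2 to 37.4) against 213 CPM in Ctrl (-3.26, -4.14 to -2.50), and screened basal cells had 5 UMIs at 17.4 CPM (5.66 to 40.7) against 149 CPM (-3.09, -4.73 to -1.85). Screened immune cells went the other way, with 752 against 421 CPM (0.84, 0.60 to 1.07). In Ctrl, 179 of the 567 screened luminal UMIs and 72 of the 209 screened basal UMIs were in 1 cell each.

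Ccl3 was at 671 CPM (577 to 775) in Fgfr2 KO against 166 CPM in Ctrl CD45-positive cells, a log2 ratio of 2.01 (1.72 to 2.31). It had a UMI in 13 of 23 and 32 of 73 cells. Of the 182 Fgfr2 KO UMIs, 78 were in the cell with NK-cell genes, and the ratio was 1.62 when the top cells of both libraries were left out. Screened immune cells gave 1.40 (1.14 to 1.66). Ccl4 was at 2391 against 1321 CPM (0.86, 0.72 to 0.99), with a log2 ratio of 0.47 (0.35 to 0.58) after screening and 1.08 with at least 2 Ptprc UMIs. Its basal-keratin ratio of -0.15 (-1.19 to 0.77), on 12 Fgfr2 KO UMIs, became -2.63 with at least 2 Ptprc UMIs and -3.29 without a CD45 filter, as cells with Ptprc entered the class and its Ctrl UMIs went from 54 to 350 and 600. The higher Ccl3 of Fgfr2 KO luminal-keratin cells (1.13, 0.37 to 1.86) was lost with screening, which left 2 UMIs in Fgfr2 KO and 15 in Ctrl (-0.82, -3.99 to 1.28). The immune cells of both libraries differed in makeup beside these values. Ccr7, a gene of migrating dendritic cells, had 86 UMIs in 7 Fgfr2 KO and 0 in Ctrl CD45-positive cells. Of the other dendritic genes, H2-Ab1 had 354 and 506 UMIs, Itgax 16 and 61 and Cd209a 5 and 0. Flt3 and Xcr1 had 0 in both. Lyz2 had 1348 UMIs in 20 of 23 Fgfr2 KO and 13523 in 73 of 73 Ctrl cells. C1qa had 533 in 15 and 909 in 49. The class totals were 271402 and 1247271 UMIs. The listed macrophage genes together were higher in Fgfr2 KO, at 15851 against 12650 CPM. The part of this makeup in the Ccl3 and Ccl4 differences was not tested. Ccl20 was at least 35.2-fold higher in the Fgfr2 KO CD45-positive class, all of it from the 1 keratin-rich cell described above, and 0 UMIs remained in that class without it.

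**Figure D4:**
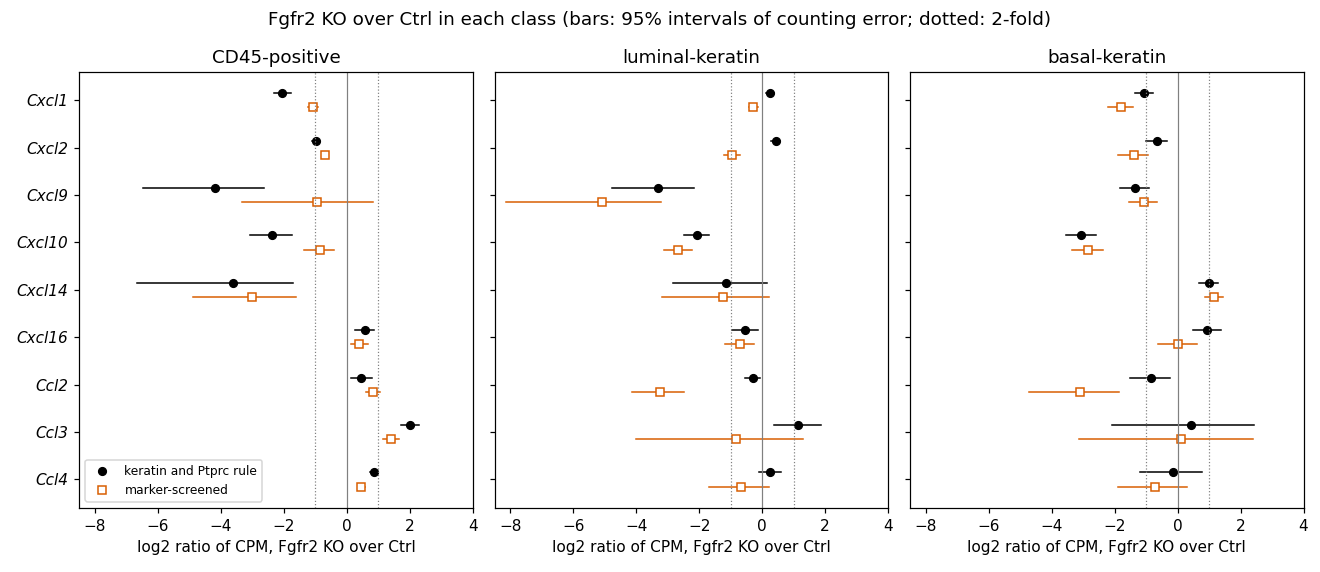
Log2 ratio of CPM, Fgfr2 KO over Ctrl, for 9 chemokines in the CD45-positive, luminal-keratin and basal-keratin classes (black circles) and in the corresponding marker-screened classes (open squares), with 95% intervals of counting error and dotted lines at a 2-fold difference; Ccl20, with 30 UMIs in all, is left out. Cxcl10 lay below 0 in all 6 estimates, and Ccl2 and Cxcl2 in luminal cells moved from near 0 or above it to below it with screening.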

How the data were processed

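Single cells of 1 Ctrl and 1 Fgfr2 KO library were measured by droplet-based RNA sequencing. The deposited table holds UMI counts as whole numbers, 1 column per cell; the authors made it with Cell Ranger (2.1.1 in the submitters' processing notes) on mm10 and joined both libraries by aggregation. Whether depth was equalised in that step, and the annotation, are not given in the sources used here. Columns were assigned to libraries by their prefix.

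Every deposited cell was kept, doublets included, and no doublet caller was run. Counts were summed by class and divided by all UMIs of its cells (CPM). Levels have exact Poisson 95% intervals, shares of cells exact Clopper-Pearson 95% intervals and ratios exact conditional binomial 95% intervals. Genes with at least 20 UMIs over both sides were called at a 2-fold difference of CPM, as a description without a test, and a side with 0 UMIs entered at a floor of 3 counts over the class. Shares were also computed after thinning each cell to 5393 UMIs, the 10th percentile, which left out 35 cells. Named genes were the 10 members, other chemokines and receptors with at least 50 UMIs, listed NF-kB and interferon genes, and the 3 genes with the highest Pearson r of log1p(UMIs per 10000) among those in at least 20 cells; the receptors named in the text are given at any count, a choice made after their values were seen, and not every listed gene is reported here. The members and lists were chosen with earlier results of these data known, and the marker-screened classes and the ratio to 4 immune genes after seeing the counts. The steps were tested on simulated counts. Python 3.11.15, numpy 2.4.6, pandas 2.3.3 and scipy 1.17.1 were used.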

Additional observations from a re-analysis of the deposited data

How the results depend on the processing

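With 86 cells and 1 library, the Fgfr2 KO values often rest on few cells, and no leave-one-out over libraries was possible. No paired analysis was possible because each group has 1 library. Of 334 alternative values for 44 log2 ratios, 163 stayed within the counting interval of the reported value, 161 moved out of it and 10 reversed a called direction. Leaving out cells with over 25% mitochondrial UMIs moved none of the 44. The 10 reversals concern Ccl3 and Ccl4. Ccl3 in luminal-keratin cells, Fgfr2 KO over Ctrl, became -0.86 with immune cells called by the marker list, -0.61 with at least 10 keratin UMIs and -0.82 with screening, and luminal over basal in Ctrl became -0.18, -0.17 and -0.19. Ccl4 luminal over basal became -0.75, -0.31 and -0.75 under the same 3, and -0.10 with at least 2 Ptprc UMIs. In each, cells with immune genes changed class.

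Counts of members called also moved, and the share of all genes called under the same setting follows each in parentheses. In CD45-positive cells, 1 was higher in Fgfr2 KO without the top cell (4.39%), with at least 50 UMIs per gene (4.25%) and with screening (7.48%), and 1 was lower with the marker list (13%) and 2 with screening (11.0%). In luminal-keratin cells, the higher count was 2 without a CD45 filter (4.27%) and with the mean CPM over cells (6.28%), and 0 with at least 10 keratin UMIs (3.94%), without the top cell (2.05%) and at 3-fold (0.962%). In basal-keratin cells, it was 1 with at least 2 Ptprc UMIs, the marker list, no CD45 filter, at least 10 keratin UMIs and screening (4.14% to 4.76%), and 2 with the mean over cells (5.65%). The basal-keratin lower count was 6 with at least 2 Ptprc UMIs (12.2%) and without a CD45 filter (13%), 5 with the marker list, at least 10 keratin UMIs and screening (11.4% to 11.5%), and 1 at 3-fold (4.25%). For luminal over basal in Ctrl, 1 was higher with at least 2 Ptprc UMIs (8.96%), at least 10 keratin UMIs (9.05%) and at 3-fold (4.38%), and 0 with the marker list, no CD45 filter and screening (8.21% to 8.92%). For CD45-positive over keratin-classed cells, 3 were higher at 3-fold (5.75%), and the lower count was 2 with at least 2 Ptprc UMIs, the marker list and screening (28.2% to 35.1%) and 1 without the top cell (28.0%).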

Other observations

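Of 27 other chemokine genes in the table, 21 had at least 50 UMIs over all cells. In CD45-positive cells of Fgfr2 KO over Ctrl, 6 of the 14 with enough counts were called higher and 4 lower, where 7.80% and 12.2% of all genes were called, with a median log2 ratio of 0.10 beside -0.03 over all genes. Ccl8, a monocyte chemokine of resident macrophages, was at 1529 CPM (1386 to 1684) in 10 of 23 cells against 334 CPM (302 to 367) in 35 of 73. Ccl5, a chemokine of NK cells and others, was at 1312 against 322 CPM (2.03, 1.82 to 2.24), with 185 of its 356 Fgfr2 KO UMIs in 1 cell. Ccl17 and Ccl22, both ligands of Ccr4 made by dendritic cells, had 81 and 94 UMIs in Fgfr2 KO and 32 and 0 in Ctrl, and 78 and 87 of them lay in 1 cell each. The lower ones included Ccl9 at 424 against 1049 CPM (-1.31, -1.60 to -1.03) and Ccl24 at 18.4 against 121 CPM (-2.72, -4.36 to -1.46). In basal-keratin cells, 389 of the 412 Fgfr2 KO UMIs of Ccl5 were in 1 cell.

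Chemokines outside the 10 were also counted in the keratin classes, which hold some immune and fibroblast cells and were not screened for these genes. Cx3cl1, a membrane-bound chemokine, was at 69.5 CPM in basal-keratin and 61.8 CPM in luminal-keratin cells of Ctrl, against 23.2 CPM in CD45-positive cells. Cxcl15, a chemokine of mucosal epithelia, had 129 UMIs in luminal-keratin and 4 in basal-keratin cells (log2 ratio 3.89, 2.50 to 5.79), with 63 in 1 cell. Cxcl12, the ligand of Cxcr4 and Ackr3, was at 115 CPM in basal-keratin and 44.4 CPM in luminal-keratin cells of Ctrl (-1.37, -1.73 to -1.02), while in Fgfr2 KO it was at 131 CPM in basal-keratin and 323 CPM in luminal-keratin cells, with 82, 75 and 33 of the 199 luminal-keratin UMIs in 3 cells. Ackr3, a scavenging receptor of Cxcl12, was at 11.2 CPM in CD45-positive against 28.4 CPM in keratin-classed cells of Ctrl (-1.34, -2.26 to -0.54).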
